A study of Bos taurus with 18 samples.

Results

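Recombinant bovine PDI (rbPDI) was set against recombinant bovine CAPG (rbCAPG) in endometrial cells of cattle, pooled over both cell types of a 3D endometrium-on-a-chip. All 6 libraries with rbPDI and all 6 with rbCAPG were taken, which is 12 of the 18 RNA sequencing libraries of the series, and they were matched as 6 pairs by cell type and replicate number. The 6 vehicle control (VC, PBS) libraries entered no test and are given only as levels. Epithelial cells (bEECs) and stromal cells (bESCs) of the bovine endometrium were primary cells grown from the uterine tracts of 3 animals in the late-luteal stage, and each replicate number stood for 1 animal. bEECs lined the chamber through which medium flowed, bESCs lay in a static chamber across a porous membrane, and a device was seeded with cells of a single animal. Each protein was added at 1 µg/mL to the medium on the epithelial side for 24 h, so the bESC chamber received none of it directly. The 4 groups were rbCAPG bEECs, rbPDI bEECs, rbCAPG bESCs and rbPDI bESCs, with n = 3 samples in each. The cells were passaged in flasks and enriched by the time they take to lift in trypsin, their purity was judged by eye, and immune and vascular cells of the endometrium are not part of the model.

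Before implantation the bovine conceptus elongates in the uterine lumen and releases proteins that reach the endometrial epithelium. CAPG is a gelsolin-family protein that caps the ends of actin filaments, and PDI, the product of P4HB, is a thiol oxidoreductase of the endoplasmic reticulum that forms and rearranges disulfide bonds and is a subunit of prolyl 4-hydroxylase. Endometrial cells answer many stimuli from the lumen through receptors that signal by way of NF-kB to genes for chemokines, cytokines and matrix proteases. The comparison asks whether the 2 conceptus proteins, at the same dose and time, left different transcriptomes. A log2 fold change is given as rbPDI minus rbCAPG throughout, so that a positive value is a higher level with rbPDI. Levels are counts scaled to the normalized library size (CPM), in the order of replicates 1, 2 and 3.

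The 12 libraries held 10072851 to 44253149 counts, and the smallest was rbPDI bESCs of replicate 1. It stood apart in other ways too. In that pair the rbPDI minus rbCAPG differences had an SD over genes of 1.02 log2 units, against 0.434 to 0.659 in the other 5 pairs. The labels of cell type were checked on genes set by the VC samples alone, 127 epithelial and 41 stromal genes that were at least 100-fold apart in every VC sample. The 127 epithelial genes took 2.87 to 3.47% of the counts in bEECs and 0.00208 to 0.00883% in bESCs, with the highest of the latter in rbPDI bESCs of replicate 1. The 41 stromal genes took 1.67 to 5.83% of the counts in bESCs, lowest in the same library, and 0.00796 to 0.0347% in bEECs. The share of the other cell type was higher with rbPDI in 5 of 6 pairs, by a mean of 0.38 ± 0.65 on the log2 scale (SD, n = 6 pairs). The exact two-sided sign-flip permutation p was 0.25, where the smallest p that 6 pairs allow is 0.03125. This test takes the 6 pairs as independent, although the bEEC and bESC pairs of a replicate share an animal and its devices. It also joins the stromal share in bEECs with the epithelial share in bESCs. In bESCs the share was higher in 3 of 3 pairs, by 1.06, 0.51 and 0.80, and in bEECs it differed by −0.81, 0.44 and 0.29. These values depended on the limit that set the genes. With 194 epithelial and 148 stromal genes at least 32-fold apart, the share in bESCs differed by −0.04, 0.26 and 0.35. That in bEECs differed by 0.84, 0.66 and 0.34, so that replicate 1 changed side in bESCs and in bEECs. Over the 6 pairs the mean was 0.40 (exact sign-flip permutation p = 0.0625). In bEECs the 32-fold stromal share was 0.06 to 0.12% in VC, 0.36 to 1.14% with rbCAPG and 0.57 to 1.45% with rbPDI. It was thus above VC with both proteins, but the limit chose genes that were low in these same VC bEEC samples. A low share in VC is therefore built in. This share cannot tell carried-over RNA from genes raised with the proteins.

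**Figure D1:**
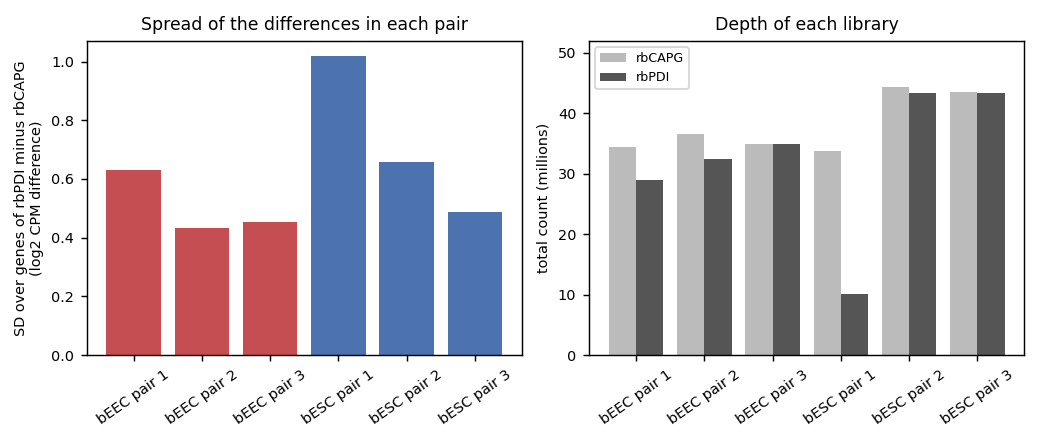
Spread of the gene-wise log2 differences in each of the 6 pairs (left, SD over 17385 genes) and total count of each library (right, the axis as labelled). The bESC pair of replicate 1 has the widest spread, 1.02, and the smallest library, 10072851 counts with rbPDI.

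With both cell types pooled, no gene passed the test. edgeR's quasi-likelihood test with the 6 pairs as blocks called 0 of 17385 genes (0%) with an adjusted p-value below 0.05 and a log2 fold change beyond 1 in either direction, and the smallest adjusted p-value was 0.983. A nominal (unadjusted) p-value below 0.05 was found for 750 genes (4.31%), with 333 higher (1.92%) and 417 lower (2.4%) with rbPDI. DESeq2's Wald test on the same pairs called 6 genes, all higher with rbPDI and beyond the limit on the fold change, of which only TNFRSF9 has a symbol, and 1167 had a nominal p-value below 0.05. In limma, on the 6 differences with the animal as a random block, 0 genes were called and 831 had a nominal p-value below 0.05. Without a filter on low counts edgeR called 20 genes, 13 higher and 7 lower, CCL5 and TNFRSF9 among the higher. That fit took in 28549 genes and its prior degrees of freedom were 37.9, against 6.16 with the filter.

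The tests did not reach a call, and the intervals say how large a common difference could still be. The median log2 fold change was −0.02, with the middle 50% of genes from −0.15 to 0.11, and the median SE was 0.17. The 95% interval lay within 1 log2 unit of 0 on both sides for 13631 genes (78.4%). Of genes with a mean of 32 CPM or more this held for 97%, and of genes below 1 CPM for 18.1%, so a 2-fold common difference was outside the interval for most well expressed genes and inside it for most genes at low level. The difference between the proteins had 1 sign in 6 of 6 pairs for 539 genes (3.1%), higher with rbPDI in 200 (1.15%) and lower in 339 (1.95%). Of the sum of squares over all genes and the 12 samples, 92.6% lay between the 6 pairs, 1.33% went with the protein in common and 6.05% was left. Within pairs the protein thus held 18%, where 1 of 6 degrees of freedom would hold 16.7%.

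**Figure D2:**
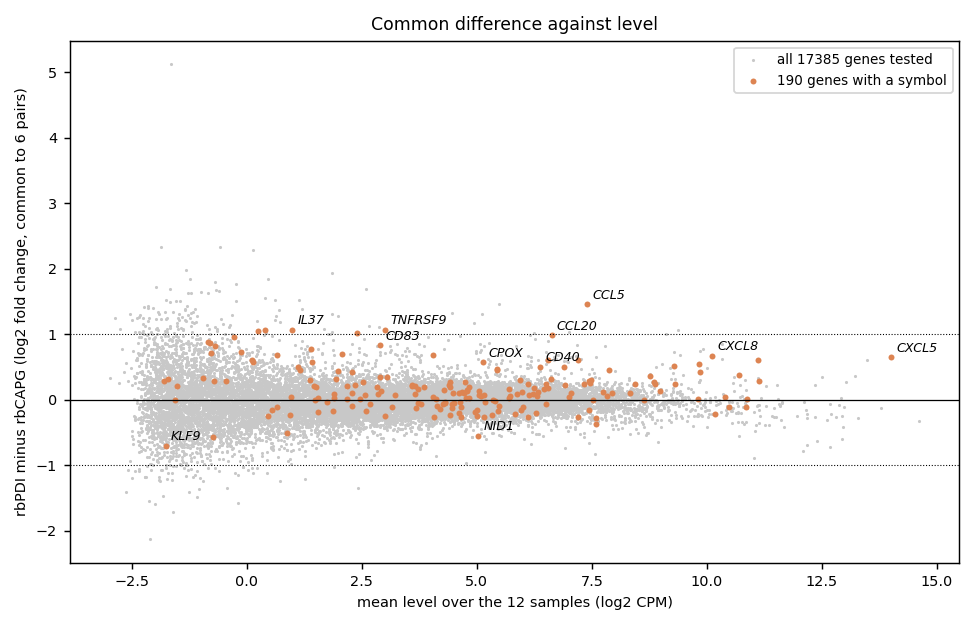
Common rbPDI minus rbCAPG log2 fold change of each gene (vertical) against its mean level in log2 CPM over the 12 samples (horizontal), for all 17385 genes tested (grey) and 190 with a symbol (orange). Dotted lines mark 1 log2 unit. Genes scatter more widely at low level, and CCL5, at 1.46, has the highest value of the genes with a symbol.

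Names were known for 190 of the tested genes, from the study's lists of genes called between rbCAPG and VC. The rbCAPG libraries that chose them are the ones used here, so the direction of these genes is not independent of the choice. Genes that the study called with rbPDI but not with rbCAPG are not on these lists and could not be named. A gene that leads among those with a symbol therefore need not lead among all genes. Of the 190, 132 were higher and 58 lower with rbPDI, with a median of 0.11, while of all tested genes 46.4% were higher. With a nominal p-value below 0.05, 24 were higher, where all tested genes gave 1.92%, and 1 was lower, where they gave 2.4%. In 6 of 6 pairs 13 were higher (1.15% of all genes) and 2 lower (1.95% of all genes). Genes listed for bESCs only were higher in 39 of 43 (median 0.20), those listed for both cell types in 9 of 9 (median 0.37), and those listed for bEECs only in 84 of 138 (median 0.07). The 95% interval lay within 1 log2 unit of 0 for 147 of the 190 (77.4%), a share close to the 78.4% of all genes. With DESeq2's size factors 134 were higher and 56 lower. For the lists below, the shares of all tested genes at a nominal p-value below 0.05 are again 1.92% higher and 2.4% lower. The list members were chosen with earlier results of these data known.

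**Figure D3:**
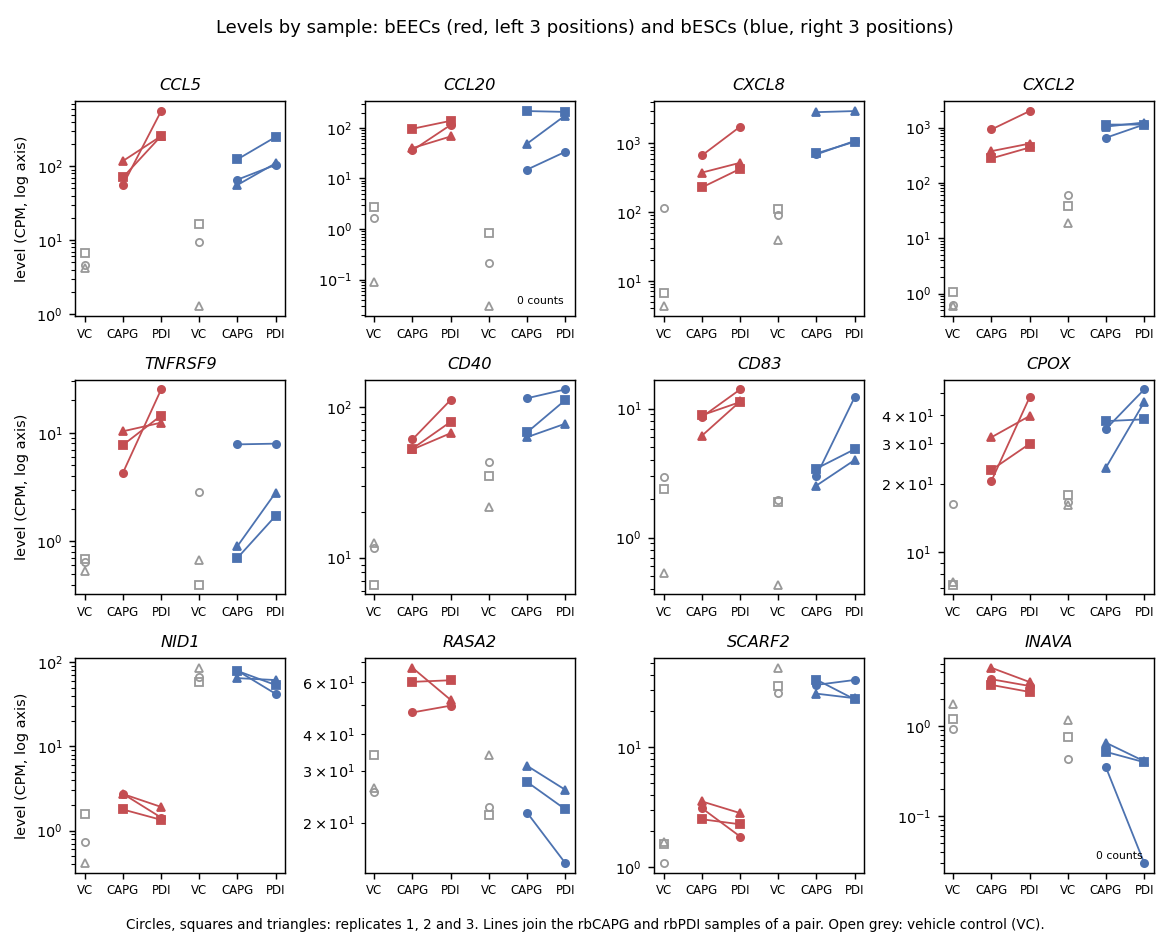
Level of 12 genes in each sample, in CPM on a log axis, with a line joining the rbCAPG and rbPDI samples of a pair (bEECs red, bESCs blue) and VC samples as open grey symbols. The 8 genes in the upper 2 rows are those with a symbol and the smallest p-values among the higher, and the 4 below those among the lower. A sample at 0 counts is drawn at the lower end of the axis.

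A chemokine, CCL5, had the largest common difference among the genes with a symbol. Chemokines are small secreted proteins that draw leukocytes, CXC members chiefly neutrophils and lymphocytes and CC members chiefly monocytes and T cells. CCL5, which attracts T cells and monocytes, was in bEECs at 55.9, 70.7 and 118 CPM with rbCAPG and 557, 256 and 256 CPM with rbPDI. In bESCs CCL5 was at 65.8, 124 and 55.8 CPM with rbCAPG and 104, 249 and 109.7 CPM with rbPDI. All 3 rbPDI bEEC samples lay above all 3 rbCAPG bEEC samples, whereas the bESC groups overlapped although each bESC pair was higher with rbPDI. The common log2 fold change was 1.46 (SE 0.30, 95% interval 0.81 to 2.11, unadjusted p = 0.000423 in edgeR's test), and it was 2.08 (SE 0.35) in bEECs and 0.88 (SE 0.33) in bESCs. VC levels were 4.63, 6.76 and 4.22 CPM in bEECs and 9.33, 16.7 and 1.28 CPM in bESCs, below every sample with either protein. Leaving out the bEEC pair of replicate 1, which had the widest CCL5 difference, brought the common value to 1.13, and over all alternatives it lay between 1.13 and 1.69.

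CCL20, the ligand of CCR6 that attracts dendritic cells and lymphocytes to mucosal surfaces, was in bEECs at 35.8, 95.5 and 39.7 CPM with rbCAPG and 114, 137 and 67.3 CPM with rbPDI. Its bESC levels were 14.9, 214 and 48.4 CPM with rbCAPG and 33.4, 206 and 175 CPM with rbPDI. It was higher with rbPDI in 5 of 6 pairs, and the bESC pair of replicate 2, the highest of the bESC pairs, differed by −0.05. The common log2 fold change was 0.98 (SE 0.23, 95% interval 0.49 to 1.48, unadjusted p = 0.00109 in edgeR's test). The other members of that list were CX3CL1, a membrane-bound chemokine, at 0.45 (SE 0.31), CCRL2, a receptor that presents chemerin, at 0.43 (SE 0.24), and CXCR4, the receptor of CXCL12, at 0.02 (SE 0.14). All 5 members thus had values above 0, with a median of 0.45, and 2 had a nominal p-value below 0.05.

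CXCL8, the main neutrophil attractant of cattle, was in bEECs at 669, 229 and 376 CPM with rbCAPG and 1753, 426 and 522 CPM with rbPDI. In bESCs it was at 691, 716 and 2847 CPM with rbCAPG and 1086, 1056 and 2952 CPM with rbPDI. Each of the 6 pairs was higher with rbPDI, but samples of different animals overlapped in both cell types, with replicate 1 highest in bEECs and replicate 3 in bESCs. The common log2 fold change was 0.67 (SE 0.18, 95% interval 0.27 to 1.07, unadjusted p = 0.00346 in edgeR's test). CXCL2, a close relative that acts through the same receptor class, was in bEECs at 928, 278 and 376 CPM with rbCAPG and 1994, 437 and 514 CPM with rbPDI. In bESCs its levels were 657, 1135 and 1045 CPM with rbCAPG and 1140.0, 1137 and 1238 CPM with rbPDI. Its common log2 fold change was 0.54 (SE 0.17, 95% interval 0.17 to 0.91, unadjusted p = 0.00798 in edgeR's test), with 6 of 6 pairs above 0 and the bESC pair of replicate 2 near 0.

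CXCL5, also a neutrophil attractant, had the highest CPM of the list (not corrected for gene length), at 18122, 21836 and 18993 CPM with rbCAPG and 24099.8, 32882 and 35938 CPM with rbPDI in bESCs. The 3 rbPDI bESC samples lay above the 3 rbCAPG bESC samples. In bEECs its levels were 6659, 2648 and 9134 CPM with rbCAPG and 11971, 4786 and 10987 CPM with rbPDI. The common value was 0.65 (SE 0.21, 95% interval 0.18 to 1.12, unadjusted p = 0.0109 in edgeR's test). GRO1 (the bovine CXCL1) was at 0.27 (SE 0.14), CXCL3 at 0.24 (SE 0.20) and CXCL16, a scavenger receptor that is shed as a ligand of CXCR6, at 0.23 (SE 0.19). The list's 6 members were all above 0, with a median of 0.41, and 3 had a nominal p-value below 0.05. CXCL2, CXCL3 and GRO1 have related sequences, and reads with several matches were divided among genes, so their values are not independent of each other.

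Cytokines and their receptors were uneven between pairs. All 7 members of the list were above 0, with a median of 0.37, and 3 had a nominal p-value below 0.05. CSF3, the growth factor of neutrophils, was in bEECs at 3.3, 4.0 and 2.72 CPM with rbCAPG and 9.11, 7.31 and 5.57 CPM with rbPDI, so that the groups did not overlap. In bESCs it was at 0.348, 9.19 and 0.316 CPM with rbCAPG and 0.759, 5.72 and 0.499 CPM with rbPDI, with replicate 2 the highest and lower with rbPDI. The common value was 0.69 (SE 0.27), and the bEEC value 1.12 (SE 0.30) stood beside 0.03 (SE 0.35) in bESCs. Without the bESC pair of replicate 2 the common CSF3 value was 1.06. IL37, a member of the IL-1 family that dampens inflammation, was at low level, 2.25, 1.74 and 1.7 CPM with rbCAPG and 13.7, 2.39 and 2.54 CPM with rbPDI in bESCs, and its common value of 1.07 (SE 0.35) was 0.62 without the bESC pair of replicate 1. IL1R2, the decoy receptor of IL-1, had a common value of 0.57 (SE 0.22), with 0.16 in bEECs and 0.99 in bESCs.

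IL6, a cytokine of the acute-phase response, showed how far animals could differ. In bEECs it was at 1549, 876 and 1481 CPM with rbCAPG and 3412, 971 and 1269.6 CPM with rbPDI. Only replicate 1 was clearly higher with rbPDI there, and in bESCs only replicate 2, at 1548, 1105 and 1726 CPM with rbCAPG and 1299, 2516 and 2036 CPM with rbPDI. The common value for IL6 was 0.37 (SE 0.23), with a 95% interval that took in 0 and ended at 0.87. IL1RN, the IL-1 receptor antagonist, was at 0.30 (SE 0.20), IL18R1 at 0.22 (SE 0.14) and IL23A at 0.02 (SE 0.17).

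Members of the TNF superfamily came next. CD40, the receptor of CD40 ligand and a co-stimulatory molecule, had the smallest SE of the 8 leading genes. In bEECs it was at 60.9, 52.9 and 52.2 CPM with rbCAPG and 111, 79.6 and 66.9 CPM with rbPDI, so the groups did not overlap. In bESCs CD40 was at 114, 67.7 and 63 CPM with rbCAPG and 131, 111 and 77.3 CPM with rbPDI, where rbCAPG of replicate 1 lay above both other rbPDI samples. The common value was 0.50 (SE 0.12, 95% interval 0.24 to 0.76, unadjusted p = 0.00133 in edgeR's test), with 6 of 6 pairs above 0. TNFRSF9 (4-1BB), a co-stimulatory receptor of T cells, was in bEECs at 4.28, 7.71 and 10.3 CPM with rbCAPG and 25, 14.4 and 12.4 CPM with rbPDI. Its bESC levels were 7.81, 0.704 and 0.904 CPM with rbCAPG and 7.93, 1.72 and 2.81 CPM with rbPDI. The bEEC groups did not overlap, the bESC groups did, and the order of the animals turned over in bEECs, with replicate 1 lowest with rbCAPG and highest with rbPDI. Its common value was 1.07 (SE 0.29, 95% interval 0.43 to 1.70, unadjusted p = 0.00343 in edgeR's test), the largest of the 4 members. TNFRSF11B (osteoprotegerin), a decoy receptor of RANKL, was at 0.68 (SE 0.25) and TNFSF15 at −0.26 (SE 0.34).

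The NF-kB list, which holds subunits and the inhibitors that the pathway induces on itself, had small values. Of its 11 members 10 were above 0, with a median of 0.13, but none had a nominal p-value below 0.05, and all 11 intervals lay within 1 log2 unit of 0. NFKB1 was at 0.09 (SE 0.14), NFKB2 at 0.16 (SE 0.15), NFKBIA (the inhibitor IkBa) at 0.10 (SE 0.12) and TNFAIP3 (A20), which removes ubiquitin chains from the pathway's adaptors, at 0.06 (SE 0.15). The highest was TNIP1, a partner of A20, at 0.31 (SE 0.14, 95% interval −0.003 to 0.61, unadjusted p = 0.0517 in edgeR's test). Its levels were 60.9, 50.1 and 57.5 CPM with rbCAPG and 68.7, 58.2 and 81.6 CPM with rbPDI in bEECs and 253, 385 and 166 CPM with rbCAPG and 269, 371 and 312 CPM with rbPDI in bESCs, and replicate 3 differed most in each cell type. Without the bESC pair of replicate 3 its common value was 0.18. The eicosanoid and nitric oxide list had 5 of 5 members above 0, with a median of 0.12 and 0 at a nominal p-value below 0.05. PTGS2, the inducible enzyme of prostaglandin synthesis, was at 0.12 (SE 0.16), and the list members PLA2G4A and ALOX12 at 0.05 (SE 0.16) and 0.08 (SE 0.18). The inducible nitric oxide synthase NOS2 had a common value of 1.02 (SE 0.54), but in bESCs its levels were 2.25, 30 and 1.18 CPM with rbCAPG and 4.72, 10.5 and 9.45 CPM with rbPDI and replicate 2 went the other way, so the interval ran from −0.17 to 2.22. The common NOS2 value was 1.81 without the bESC pair of replicate 2 and 0.40 without that of replicate 3.

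**Figure D4:**
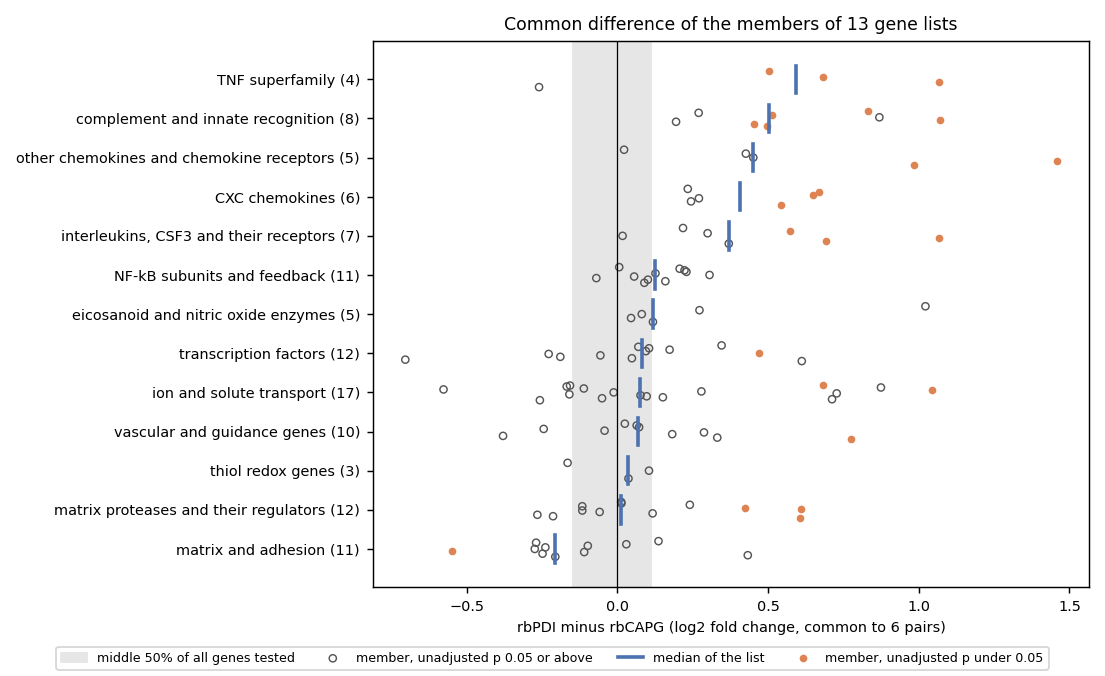
Common rbPDI minus rbCAPG log2 fold change of each member of 13 gene lists, with the number of members in parentheses, the median of the list (blue) and the middle 50% of all tested genes (grey). Members at a nominal p-value below 0.05 are filled. Medians run from −0.21 for matrix and adhesion to 0.59 for the TNF superfamily.

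Genes of innate recognition and complement had the most members at a nominal p-value below 0.05, 5 of 8, where all tested genes gave 1.92% higher. The smaller TNF superfamily list had 3 of 4. All 8 members were above 0, with a median of 0.50. Within bEECs 7 were higher at a nominal p-value below 0.05 (median 0.876), and within bESCs 1 (median 0.135). All tested genes gave 1.13% and 2.35% there. CD83, a marker of activated dendritic cells that other cells can express, was in bEECs at 8.61, 8.88 and 6.17 CPM with rbCAPG and 14.1, 11.2 and 11.4 CPM with rbPDI and did not overlap between the proteins. Its bESC levels were 3.02, 3.43 and 2.53 CPM with rbCAPG and 12.2, 4.84 and 3.99 CPM with rbPDI and did not overlap either. The common value was 0.83 (SE 0.20, 95% interval 0.40 to 1.26, unadjusted p = 0.00141 in edgeR's test), with 6 of 6 pairs above 0. The bESC pair of replicate 1 differed by 2.00, and without it the common value was 0.62. C1R and C1S, the proteases that start the classical complement pathway, are mainly stromal genes here. C1R was in bEECs at 1.31, 1.72 and 2.2 CPM with rbCAPG and 2.22, 3.89 and 3.98 CPM with rbPDI and in bESCs at 173, 303 and 178 CPM with rbCAPG and 151, 336 and 259 CPM with rbPDI. Only the bEEC groups did not overlap, and the bEEC value of 0.94 (SE 0.22) stood beside 0.17 (SE 0.19) in bESCs. C1S was at 0.81 (SE 0.25) and 0.17 (SE 0.22). In the bEEC pairs the share of stromal genes differed by −0.81, 0.44 and 0.29 on the log2 scale while C1R differed by 0.74, 1.15 and 0.84. With the 32-fold genes that share differed by 0.84, 0.66 and 0.34. The 32-fold share in bEECs was 0.36% or more with either protein, against 0.12% or less in VC, where the choice of genes builds in a low value. That share cannot tell carried-over RNA from genes raised with the proteins. The part of carried-over stromal RNA in these values was not tested.

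OLR1 (LOX-1), a scavenger receptor of oxidized lipoprotein, was in bEECs at 5.3, 9.34 and 10.2 CPM with rbCAPG and 13.3, 13.9 and 19.4 CPM with rbPDI, without overlap. In bESCs, where it was far more abundant, it was at 1583, 707 and 1266 CPM with rbCAPG and 933, 925 and 1999 CPM with rbPDI, with replicate 1 lower and the others higher with rbPDI. Its values were 0.94 (SE 0.29) in bEECs and 0.10 (SE 0.29) in bESCs. PGLYRP3, which binds bacterial peptidoglycan, was at 1.84, 1.58 and 1.39 CPM with rbCAPG and 5.83, 2.99 and 2.2 CPM with rbPDI in bEECs and at 0 counts in all 6 bESC samples, so its common value of 1.07 (SE 0.36) came from bEECs alone. CD14, the co-receptor for lipopolysaccharide, was at 0.19 (SE 0.14), SLAMF8 at 0.27 (SE 0.16) and CLEC1A, at low counts, at 0.87 (SE 0.57). Summed over the 6 immune markers that could be named, bEECs held 111 to 183 CPM with rbCAPG and 332 to 628 CPM with rbPDI, mostly CCL5. Over the other 5 (CD14, AIF1, CD83, SLAMF8 and GPR84) the sums were 55.3 to 66.0 CPM and 71.1 to 83.3 CPM in bEECs, and 20.8 to 48.3 CPM and 26.5 to 41.2 CPM in bESCs. In bulk samples fewer cells of a type and less RNA per cell cannot be told apart.

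Proteases that open the matrix were split. Of 12 members 7 were above 0 and 5 below, with a median of 0.01, and 3 had a nominal p-value below 0.05, all higher with rbPDI. These were PLAU (urokinase), which activates plasminogen, its receptor PLAUR, and MMP1, the interstitial collagenase. PLAU was in bESCs at 61.8, 31.7 and 65.5 CPM with rbCAPG and 182, 66 and 76.3 CPM with rbPDI, without overlap, and in bEECs at 5032, 2650.3 and 3828 CPM with rbCAPG and 8018, 3704 and 3021 CPM with rbPDI. Its common value was 0.61 (SE 0.24), and that of PLAUR 0.42 (SE 0.18). MMP1 was in bESCs at 48.4, 102 and 73.7 CPM with rbCAPG and 202, 117 and 102 CPM with rbPDI and in bEECs at 191, 132 and 165 CPM with rbCAPG and 230.3, 178 and 208 CPM with rbPDI. The MMP1 value of 0.61 (SE 0.22) was 0.34 without the bESC pair of replicate 1, in which it differed by 2.06. PLAU and MMP1 were more abundant in bEECs than in bESCs, and the share of epithelial genes in bESCs was higher with rbPDI by 1.06, 0.51 and 0.80 in the same 3 pairs with the 100-fold genes and by −0.04, 0.26 and 0.35 with the 32-fold genes. Its part in the bESC values was not tested. MMP13, a collagenase, was at 3531, 1605 and 3163 CPM with rbCAPG and 2178, 1044 and 2366 CPM with rbPDI in bEECs, lower with rbPDI in each of these pairs, and at −0.21 (SE 0.34) in common. PLAT, the tissue-type activator of plasminogen, was at −0.12 (SE 0.15).

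Matrix and adhesion genes were the one list with a median below that of all genes by more than 0.1, at −0.21, and 8 of its 11 members were below 0. NID1 (nidogen), which links laminin to collagen IV in basement membranes, was the only gene with a symbol below 0 with a nominal p-value below 0.05. In bESCs it was at 79.2, 78.8 and 64.7 CPM with rbCAPG and 42.1, 53.6 and 61.4 CPM with rbPDI, so the groups did not overlap. In bEECs NID1 was at 2.73, 1.78 and 2.72 CPM with rbCAPG and 1.43, 1.34 and 1.91 CPM with rbPDI. The common value was −0.55 (SE 0.13, 95% interval −0.84 to −0.26, unadjusted p = 0.00163 in edgeR's test), with 6 of 6 pairs below 0. ITGA1, the integrin subunit for collagen, was at 22.6, 14.3 and 19.1 CPM with rbCAPG and 9.82, 13.5 and 12.7 CPM with rbPDI in bEECs, without overlap, while its value in bESCs, where it was more abundant, was 0.05 (SE 0.21). Its common value of −0.27 (SE 0.17) was −0.09 without the bEEC pair of replicate 1. VCAN (versican) was at −0.21 (SE 0.13), COL6A1 at −0.25 (SE 0.19), and HAS2, which makes hyaluronan, at 0.43 (SE 0.24). All 11 intervals of the list lay within 1 log2 unit of 0.

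The medians of the remaining lists were close to 0. Ion and solute transport had 9 of 17 members above 0 and a median of 0.08. Its members at a nominal p-value below 0.05 were GJB6, a gap junction protein, at 0.68 (SE 0.24), and SLC17A1, a phosphate and urate carrier, at 1.04 (SE 0.39) from bEECs alone. Transcription factors had 8 of 12 above 0 and a median of 0.08. NFE2L3, a relative of NRF2, had the smallest p-value there. It was at 49.6, 81.9 and 94.5 CPM with rbCAPG and 87.6, 89.6 and 97.9 CPM with rbPDI in bEECs and 3.24, 1.46 and 0.972 CPM with rbCAPG and 4.05, 2.97 and 1.47 CPM with rbPDI in bESCs, higher with rbPDI in 6 of 6 pairs, and its common value was 0.47 (SE 0.15, 95% interval 0.15 to 0.79, unadjusted p = 0.00802 in edgeR's test). KLF9, a partner of the progesterone receptor, had the largest absolute value, −0.70 (SE 0.71), at levels under 1 CPM in every sample, so its interval ran from −2.27 to 0.86, and the value was −0.32 without the bEEC pair of replicate 3 and −1.54 without the bESC pair of replicate 3.

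Vascular and guidance genes had 7 of 10 above 0 and a median of 0.07. ANGPT1, the ligand of TEK, was at 0.53, 1.52 and 1.19 CPM with rbCAPG and 2.39, 2.45 and 2.01 CPM with rbPDI in bEECs, without overlap, and at 4.28, 2.48 and 1.94 CPM with rbCAPG and 4.81, 5.22 and 2.2 CPM with rbPDI in bESCs. Its common value was 0.77 (SE 0.25), with 6 of 6 pairs above 0, and TEK was at 0.33 (SE 0.39). The thiol redox list had only 3 members that could be named, 2 of them above 0, with a median of 0.04 and 0 at a nominal p-value below 0.05. AGR2, a PDI family member secreted by mucous epithelia, was at 3297, 3174 and 1991 CPM with rbCAPG and 2455, 3297 and 1881 CPM with rbPDI in bEECs, and its bEEC value was −0.15 (SE 0.27, 95% interval −0.76 to 0.45, unadjusted p = 0.592 in edgeR's test). GPX2 and GPX3, glutathione peroxidases, were at 0.10 (SE 0.20) and −0.17 (SE 0.16). The genes of the added proteins, CAPG and P4HB, have no identifier in the names used and were not analysed here.

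Other genes with a symbol led without belonging to a list. CPOX, coproporphyrinogen oxidase of heme synthesis, was in bEECs at 20.6, 22.9 and 31.9 CPM with rbCAPG and 47.8, 29.9 and 39.5 CPM with rbPDI. Its bESC levels were 34.7, 37.5 and 23.5 CPM with rbCAPG and 51.6, 38.2 and 45.4 CPM with rbPDI, without overlap. Its common value was 0.57 (SE 0.15, 95% interval 0.24 to 0.90, unadjusted p = 0.00283 in edgeR's test), and VC levels were 16.4, 7.23 and 7.44 CPM in bEECs and 16.6, 17.9 and 16.2 CPM in bESCs. Among the lower genes, INAVA, a regulator of epithelial junctions and of innate signals, was below 0 in 6 of 6 pairs with a common value of −0.51 (SE 0.27). It was in bEECs at 3.35, 2.89 and 4.49 CPM with rbCAPG and 2.81, 2.42 and 3.11 CPM with rbPDI and in bESCs at 0.348, 0.519 and 0.655 CPM with rbCAPG and 0, 0.398 and 0.408 CPM with rbPDI, where the 0 came from the smallest library, in which 3 counts are 0.253 CPM. RASA2, a Ras GTPase-activating protein, was at −0.23 (SE 0.11), SCARF2, a scavenger receptor, at −0.27 (SE 0.13), VSTM4 at −0.19 (SE 0.12) and ADAM19, a membrane-bound metalloprotease, at −0.27 (SE 0.15), which was −0.10 without the bEEC pair of replicate 1.

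A common difference assumes that the 2 cell types differ alike, and this was tested as the bEEC difference minus the bESC difference. edgeR called 0 of 17385 genes (0%), with a smallest adjusted p-value of 0.0883 and 456 genes (2.62%) at a nominal p-value below 0.05, and DESeq2 called 17. Within each cell type in the same fit, edgeR called 0 genes (0%) in bEECs, with 375 (2.16%) at a nominal p-value below 0.05, and 0 (0%) in bESCs, with 734 (4.22%), while DESeq2 called 8 and 39. Over the 190 genes with a symbol, the bEEC and bESC values had a correlation across genes of 0.127, as a description of values that share animals and devices. Of the 190, 15 were on the same side in all 3 pairs of both cell types, where all tested genes gave 3.1%. On opposite sides in all 3 pairs of each were 0 of the 190. The latter was not counted over all tested genes, so the 0 has no background to be read against. Within a device, the bEEC and bESC differences over all genes correlated at 0.113, 0.0285 and −0.0169 in replicates 1, 2 and 3, also as a description.

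Overlap of the protein groups was counted in each cell type. In bEECs, 20 of the 190 genes with a symbol had all rbPDI samples above all rbCAPG samples, which was 10.5% where all tested genes gave 2.1%, and 5 had them all below (2.63%, against 2.23%). In bESCs 10 lay above (5.26%, against 1.66%) and 3 below (1.58%, against 2.21%). Of the genes with a symbol, those with the smallest interaction p-values were C1R, at 0.77 (SE 0.28, 95% interval 0.14 to 1.40, unadjusted p = 0.0211 in edgeR's test), SCIN, an actin-severing protein, and GPRIN3. SCIN and GPRIN3 were under 0.4 CPM in every bESC sample, so their bESC values rest on few counts. For CCL5 the bEEC value exceeded the bESC value by 1.20 (SE 0.47, 95% interval 0.15 to 2.25, unadjusted p = 0.0289 in edgeR's test), and for CD40 by 0.21 (SE 0.25, 95% interval −0.35 to 0.76, unadjusted p = 0.428 in edgeR's test). Neither difference passed the adjusted test.

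**Figure D5:**
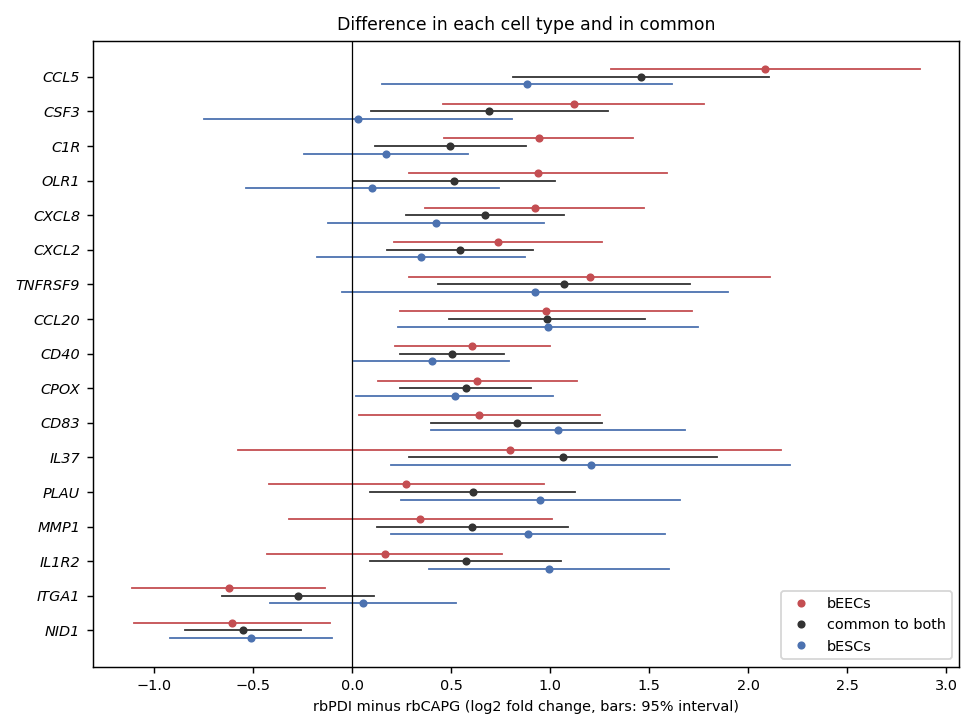
rbPDI minus rbCAPG log2 fold change of 17 genes in bEECs (red), in common (black) and in bESCs (blue), with 95% intervals from edgeR's fits. CCL5 and CSF3 are at 2.08 and 1.12 in bEECs and at 0.88 and 0.03 in bESCs, while CCL20 is at 0.98 and 0.99.

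Each cell type was also fitted alone, with its own filter, scaling and estimate of spread. When only the 6 bEEC samples were fitted, the prior degrees of freedom were 15.8 and the common biological coefficient of variation was 0.155, against 0.27 in the 6 bESC samples and 0.211 in all 12. edgeR then called 27 of 15673 genes (0.172%), 26 higher and 1 lower with rbPDI, and 958 genes had a nominal p-value below 0.05. Of these 27, 3 have a symbol, CCL5, CCL20 and CSF3. With an adjusted p-value below 0.05 and no limit on the fold change there were 37 genes (0.236%), 36 of them higher, and of 185 genes with a symbol 5 (2.7%), which added CXCL8 and OLR1. All 5 were higher with rbPDI, with log2 fold changes of 2.12 for CCL5, 1.15 for CSF3, 1.01 for CCL20, 0.96 for OLR1 and 0.95 for CXCL8 and edgeR adjusted p-values from 0.00422 to 0.0428. In the fit to all 12 samples none of them passed, and which of the changed steps made the difference was not tested. When only the 6 bESC samples were fitted, edgeR called 0 of 15934 genes (0%) and 238 had a nominal p-value below 0.05. These fits have 2 residual degrees of freedom each.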

How the data were processed

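RNA from bEECs and bESCs of the chip device was amplified with a SMART-Seq kit and sequenced. Per the labels and the study's methods, the authors trimmed reads with Trimmomatic, aligned them with STAR and assigned them to Ensembl genes by featureCounts. The deposited values are estimated counts for 36075 genes, not normalized, since shared reads were divided among genes. Of these values 23.3% were not whole, and no strand option is stated. Related or overlapping genes can therefore share reads.

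From these, counts were rounded, filtered with filterByExpr over the 4 groups (17385 genes left) and normalized by TMM in edgeR 4.0.16 under R 4.3.3. The quasi-likelihood F-test was fitted with 6 blocks (cell type by replicate) and 1 protein term (5 residual degrees of freedom, prior 6.16, common biological coefficient of variation 0.211). A second fit had a protein term for each cell type (4 residual degrees of freedom). Benjamini-Hochberg adjustment ran across every tested gene, and a call needed an adjusted p-value below 0.05 with a log2 fold change beyond 1 in either direction. The SE is the absolute log2 fold change over the square root of F. Pair differences used log2 CPM with a prior count of 2. Scripts were tested on simulated data.

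Replicate numbers were used as pairs because they stand for animals. Deviations from the group means correlated at 0.377 to 0.594 between the rbCAPG and rbPDI samples of the same cell type and number, and at a mean of −0.242 between different numbers. The latter value is not separate evidence of pairing. Deviations in a group of 3 sum to 0, so a positive value for the same number forces a negative one for different numbers. Replicates of a group differed by far more than counting error, so no library was counted as a repeat. Totals ran from 10072851 to 44253149, of which 3 counts are 2.98e-05% and 6.78e-06%, and such limits cover counting error only.

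Gene names came from the study's lists of genes called between rbCAPG and VC (245 identifiers, 190 with a symbol), since the reference gene table is of another assembly and matched 0 identifiers. Members, the 13 lists and the tests were chosen with earlier results of these data known. Named were the 8 higher and 8 lower genes with a symbol and the smallest p-values in common, the 3 with the smallest p-values for the interaction and in each cell type, for each list the members with the smallest p-value and the largest value with further examples, and AGR2. Alternatives were DESeq2 1.42.0 (local fit), limma 3.58.1 on pair differences, DESeq2's size factors, other filters, no limit on the fold change, unrounded values, no block, all 18 samples, 1 cell type at a time, and pairs or animals left out. Sequences and coordinates were not used here. 0 columns were left unused.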

Additional observations from a re-analysis of the deposited data

Results flagged for a closer look

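Among 38 sets of 6 pair differences checked with Dixon's test (37 named genes and the share of the other cell type), 3 had 1 pair far from the rest. The test's rate of 1 in 20, or 1.9 of them, assumes pairs of equal spread and sets not chosen on these values. Neither holds here, since the genes were chosen partly on these differences. In all 3 the pair far from the rest was the bESC pair of replicate 1, whose rbPDI library was the smallest. That pair had an SD over genes of 1.02 log2 units, against 0.434 to 0.659 in the others. The log2 difference of CD83 was 2.00 there and 0.34 to 0.88 in the other 5 pairs. That of MMP1 was 2.06, against 0.19 to 0.47. That of INAVA was −2.84, against −0.62 to −0.25, and rested on 0 counts with rbPDI, where 3 counts are 0.253 CPM, and on 0.348 CPM with rbCAPG. Without that pair the common values were 0.62 for CD83, 0.34 for MMP1 and −0.40 for INAVA. In the same rbPDI library the epithelial genes took 0.00883% of the counts, against 0.00424% in its rbCAPG partner, and the stromal genes 1.67% against 3.92%. With the genes of the 32-fold limit the epithelial share was 0.0258% against 0.0265% and the stromal share 8.31% against 13.9%. The part of depth or of carried-over epithelial RNA in these differences was not tested.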

How the results depend on the processing

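The common test called 0 genes under every alternative run except DESeq2 (6) and no filter on low counts (20), and the calls in bEECs, bESCs and between the cell types were 8, 39 and 17 with DESeq2 and 16, 79 and 32 with no filter. Fitted alone, the bEEC samples gave 27 calls and the bESC samples 0. With 1 pair left out, calls ran from 0 to 0 for the common difference, 0 to 1 in bEECs, 0 to 8 in bESCs (8 without bESC replicate 2 and 5 without bESC replicate 3) and 0 to 4 between cell types (4 without bESC replicate 2). Without the replicate block 0 genes were called in each of the 4 tests, and 187 in place of 750 had a nominal p-value below 0.05 for the common difference. The count of genes with 1 sign in 6 pairs was 498 to 641. The share of the other cell type had a mean of 0.40 in place of 0.38 with a 32-fold limit. It moved within the cell types, from −0.03 to 0.61 in bEECs and from 0.79 to 0.19 in bESCs. A 1000-fold limit left 1 stromal gene, at 0 counts in some bEEC libraries, so it gave no value in bEECs or over the 6 pairs. With its 44 epithelial genes the share in bESCs was higher with rbPDI in 3 of 3 pairs. The mean was 1.76, with 2.9 in replicate 1. Among 37 named genes and up to 18 alternatives, 34 never changed direction. GPRIN3 (0.09) was −0.25 without the block, −0.31 with DESeq2, −0.34 in both limma fits and −0.15 to 0.39 over the pairs and animals left out, where SCIN (0.05) ran from −0.028 to 0.19 and AGR2 (0.04) from −0.10 to 0.24. For all of these the cause was not tested. Below 1 CPM 18.1% of genes had an interval within 1 log2 unit of 0, and the part of depth in this was not tested.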

Other observations

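Of the 79 genes with a symbol that belong to none of the lists, 52 were higher and 27 lower with rbPDI, with a median of 0.09, and CPOX alone had a nominal p-value below 0.05. For 67 of the 79 the 95% interval lay within 1 log2 unit of 0.

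A few genes known only by identifier had the smallest p-values, and they were chosen after their values were seen. ENSBTAG00000001321 had the smallest p-value of the common test. It was in bEECs at 52.5, 33.8 and 40.6 CPM with rbCAPG and 158, 52.5 and 65.5 CPM with rbPDI, and in bESCs at 1.6, 1.0 and 0.452 CPM with rbCAPG and 2.78, 4.4 and 2.68 CPM with rbPDI. Its common log2 fold change was 1.31 (SE 0.24, 95% interval 0.80 to 1.83, unadjusted p = 0.000159 in edgeR's test), its edgeR adjusted p-value was 0.983, from 5.64e-05 with no filter to 1 over the alternatives, and it was called with no filter and with DESeq2. ENSBTAG00000021176 led the lower genes. It was at 12.8, 11.4 and 32.2 CPM with rbCAPG and 6.55, 9.22 and 17.4 CPM with rbPDI in bEECs, and at 265, 256 and 314 CPM with rbCAPG and 146, 120.1 and 249.9 CPM with rbPDI in bESCs, where the groups did not overlap. Its common value was −0.74 (SE 0.14, 95% interval −1.04 to −0.44, unadjusted p = 0.000194 in edgeR's test). Its edgeR adjusted p-value was 0.983, and 0.0147 with no filter, and DESeq2's was 0.000359, the lowest over the alternatives, where the highest was 1. Since its log2 fold change was within 1, it was called under none of them.

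ENSBTAG00000039046 was among the genes that shared the smallest adjusted p-value in bESCs, 0.0873 in edgeR's test. It was there at 1.71, 0.333 and 0.271 CPM with rbCAPG and 28.9, 1.55 and 1.34 CPM with rbPDI, a log2 fold change of 3.11 (SE 0.37), and in bEECs at 115, 32.8 and 75.3 CPM with rbCAPG and 60.6, 23.9 and 59.9 CPM with rbPDI. The gene was thus mainly epithelial, and the share of epithelial genes in bESCs was higher with rbPDI in the same 3 pairs, by 1.06, 0.51 and 0.80 on the log2 scale with the 100-fold genes, but by −0.04, 0.26 and 0.35 with the 32-fold genes. Its part in the value was not tested.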
